A study of Mus musculus with 2 samples.

Results

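Macrophages and monocytes were followed in the newborn mouse bladder through 39 genes chosen by name, among 43346 mouse gene entries measured. The genes cover leukocyte identity, the CSF1 growth factor axis, complement C1q, resident-type and monocyte-type markers, Fc receptors, scavenger and engulfment receptors, and lysosomal proteins. Each was found by mapping its gene identifier to a symbol, and all 39 were present in both libraries. Within the set, Mrc1, Cd163, Folr2 and Timd4 were taken as the resident-type genes, and Ly6c2, Plac8 and Lyz2 as the monocyte-type genes.

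The samples were whole urinary bladders of 2 mouse pups of the inbred strain B6NCrl, which were littermates from 1 pregnant female, at postnatal day 0. Each pup gave 1 library, made from 10 ng of total RNA above 200 nt in size, and neither a genetic change nor a treatment is given in the labels. Both pups form a single group, newborn bladder (n = 2), so there is no comparison between conditions, and what can be compared is 1 littermate with the other. The labels do not give sex, and no cells were sorted, so every value comes from bulk tissue in which fewer cells of a type and less RNA per cell cannot be told apart. The libraries held 43653931 (pup 1) and 32564563 (pup 2) expected counts. Smooth muscle and urothelial markers were abundant in both libraries, with summed levels of 59133 and 54169 TPM (a length-scaled share of transcripts) for 6 smooth muscle genes and 7706 and 7213 TPM for 6 urothelial genes.

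Macrophages are phagocytes that live in most organs, where they clear dying cells and microbes and take part in tissue remodelling. Many tissue macrophages arise from embryonic precursors in the yolk sac and fetal liver and renew themselves locally, while others are replenished by blood monocytes, and around birth both sources are active. The receptor CSF1R, bound by the growth factors CSF1 and IL-34, keeps most macrophages alive, and the transcription factor PU.1, encoded by Spi1, sets the identity of the lineage. In the bladder, macrophages lie beneath the urothelium and in the muscle layer.

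A pair of members can be followed only where the reads distinguish a gene from its near-identical neighbour, so a stretch of coding sequence is shown for each such pair. Lyz2 (chromosome 10, 117277331 to 117282321, minus strand, GENCODE M21 on GRCm38) encodes the lysozyme of macrophages, monocytes and neutrophils. Lyz1 (chromosome 10, 117287797 to 117292868, minus strand) encodes the lysozyme best known from Paneth cells of the gut. Their coding sequences are 447 bases long and differ at 22 bases, an identity of 95.1%. Coding bases 37 to 156 hold 14 of these differences, in capitals.
Lyz2: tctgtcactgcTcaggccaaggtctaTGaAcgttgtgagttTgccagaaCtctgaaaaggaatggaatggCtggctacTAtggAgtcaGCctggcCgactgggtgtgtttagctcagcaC
Lyz1: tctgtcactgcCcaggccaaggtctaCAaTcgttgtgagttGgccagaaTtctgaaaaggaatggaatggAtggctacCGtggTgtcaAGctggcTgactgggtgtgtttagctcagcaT
For the monocyte marker Ly6c2 the near-identical gene is Ly6c1, which is also expressed by endothelial cells. Of 396 coding bases, 9 differ, an identity of 97.7%, and coding bases 1 to 120 hold 6 of them, in capitals.
Ly6c2: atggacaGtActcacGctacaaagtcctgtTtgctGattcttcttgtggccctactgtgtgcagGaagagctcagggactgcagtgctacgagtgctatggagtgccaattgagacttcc
Ly6c1: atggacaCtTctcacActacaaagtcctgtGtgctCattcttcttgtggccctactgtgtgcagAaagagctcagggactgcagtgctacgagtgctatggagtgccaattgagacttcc
Of the 1217 different 100-base windows in Lyz2 transcripts, 24 (1.97%) also occur in Lyz1. For Ly6c2, 159 of 2737 windows (5.81%), pooled over all its annotated transcripts, occur in Ly6c1. The longest identical run in the coding sequences of this pair is 188 bases, longer than a window. Over the whole set, 26 members share no such window with another gene and 13 share at least 1.

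The 4 resident-type genes did not move together between the pups, as described further on, and the 250 bases before their start sites are shown for reference, from RefSeq on GRCm38.p6, each on the strand of its gene. Capitals mark matches to 3 short motifs searched on both strands: a PU.1-type motif GAGGAA, a C/EBP-type motif TTGCNNAA and a MAF-type motif TGCTGAC.
Mrc1, chr2:14229164-14229413, plus strand: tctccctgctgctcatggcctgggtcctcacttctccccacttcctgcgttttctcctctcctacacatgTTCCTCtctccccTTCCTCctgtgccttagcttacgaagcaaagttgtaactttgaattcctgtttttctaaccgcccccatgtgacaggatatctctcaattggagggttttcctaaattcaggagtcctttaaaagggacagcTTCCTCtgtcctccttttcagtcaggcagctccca
Cd163, chr6:124304401-124304650, plus strand: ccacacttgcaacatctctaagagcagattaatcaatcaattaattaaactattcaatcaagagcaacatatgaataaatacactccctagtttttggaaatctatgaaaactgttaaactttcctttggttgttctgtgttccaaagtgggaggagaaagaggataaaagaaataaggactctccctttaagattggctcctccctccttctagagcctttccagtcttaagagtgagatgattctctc
Folr2, chr7:101857191-101857440, minus strand: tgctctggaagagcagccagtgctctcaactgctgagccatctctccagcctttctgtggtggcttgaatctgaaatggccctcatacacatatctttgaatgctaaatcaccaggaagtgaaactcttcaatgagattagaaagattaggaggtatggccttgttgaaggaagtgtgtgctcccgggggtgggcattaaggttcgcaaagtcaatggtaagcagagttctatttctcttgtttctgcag
Timd4, chr11:46810549-46810798, plus strand: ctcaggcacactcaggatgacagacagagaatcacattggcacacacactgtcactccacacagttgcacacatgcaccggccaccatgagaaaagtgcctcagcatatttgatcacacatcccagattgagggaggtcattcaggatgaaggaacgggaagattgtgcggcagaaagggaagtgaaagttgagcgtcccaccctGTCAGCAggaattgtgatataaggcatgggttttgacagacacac
Mrc1 has 3 matches to GAGGAA, all on the reverse strand, with first bases 180, 167 and 35 bases before the start. Timd4 has 1 reverse-strand match to TGCTGAC, whose first base lies 45 bases before the start. The Cd163 and Folr2 stretches hold no match to any of the 3 motifs. Folr2 has another promoter entry, chr7:101845282-101845581 on the minus strand, which is not shown and also holds no match. RefSeq promoter entries of 300 bases (250 before and 50 after the start) were found for 31 of 39 members, which gave 37 promoters. GAGGAA occurred in 20 of these 37 (54.1%) and in 28.3% of all 32851 promoters in the table. TTGCNNAA occurred in 6 of 37 against 10.8% of all, and TGCTGAC in 3 of 37 against 4.67% of all. A match is a run of letters and not a measured binding site. Maf, Spi1, Adgre1, Tyrobp, C1qa, Csf1r, Msr1 and Ctsb had no entry.

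The newborn bladder held RNA of nearly the whole set. Of 39 members, 35 reached 1 TPM in both pups, and the exceptions were Timd4, Ly6c2, Lyz1 and Chil3. Summed over members, the level was 2695 TPM in pup 1 and 4681 TPM in pup 2, which is 0.270% and 0.468% of all TPM. Much of that sum came from 8 members that cells other than leukocytes also express, namely Csf1, Axl, Cd9, Ctsb, Ctsd, Lgals3, Maf and Gpnmb. They added up to 1763 TPM in pup 1 and 2100 TPM in pup 2. The other 31 members, more restricted to leukocytes and called leukocyte-restricted here, added up to 932 and 2581 TPM. The grouping is not strict, since some of them, such as Plac8, are also expressed by other cells.

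**Figure D1:**
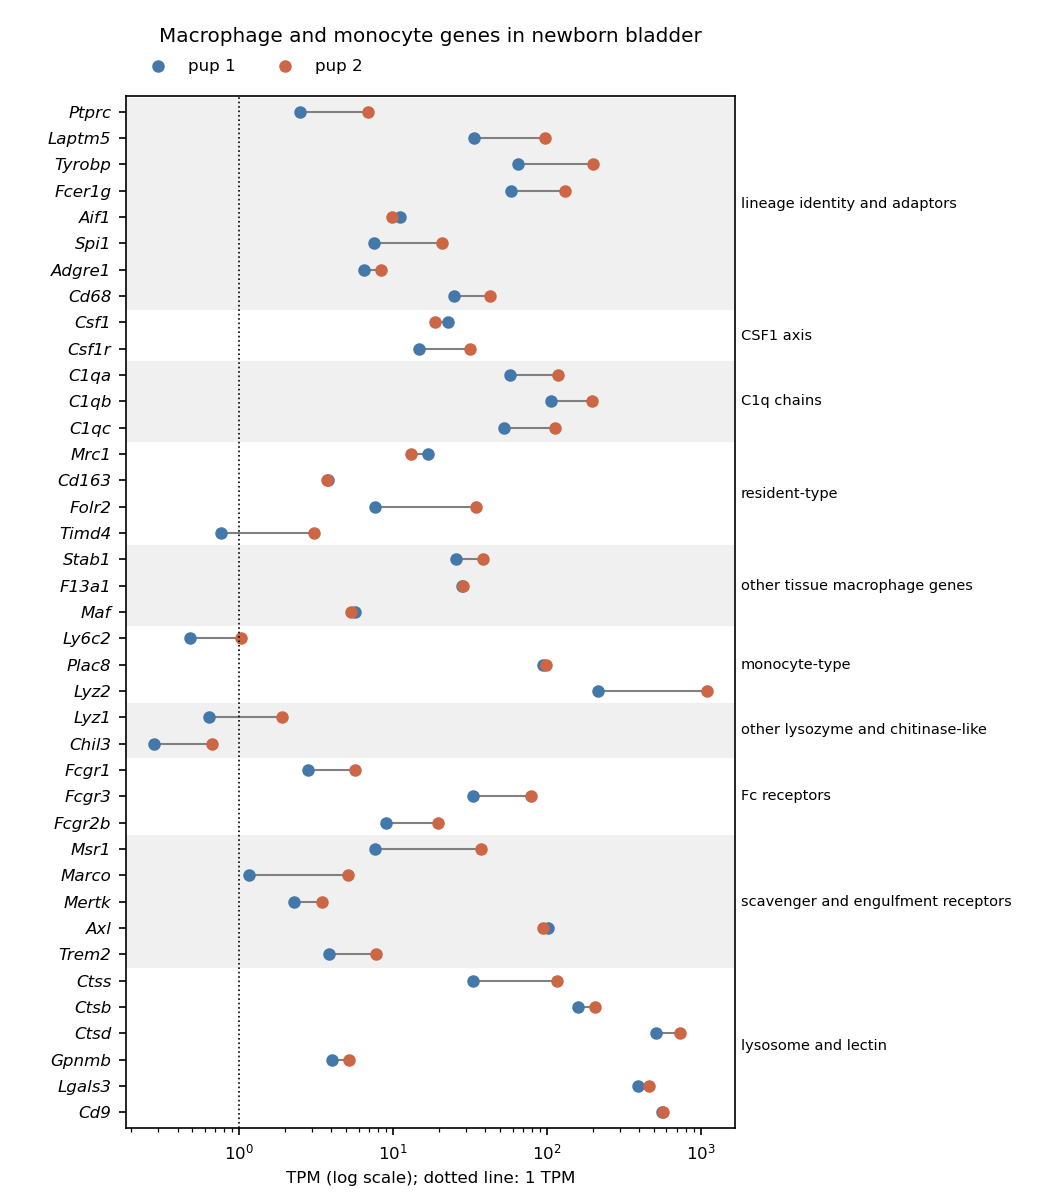
Level of each of the 39 genes in pup 1 (blue) and pup 2 (orange), in TPM on a log axis, with genes grouped by role and a dotted line at 1 TPM. Levels span from 0.28 TPM for Chil3 in pup 1 to 1106 TPM for Lyz2 in pup 2, and most leukocyte-restricted genes lie further right in pup 2.

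The pups differed in these genes in 1 direction more than in the other. Ratios between pups were taken from counts scaled with TMM factors, as the log2 of pup 2 over pup 1, with a 95% Clopper-Pearson interval that covers counting error only. With 1 library per pup there is no residual degree of freedom and no test, so a difference is described as large when it is at least 2-fold with a mean count of at least 100. By that rule 18 of 36 members with sufficient counts were higher in pup 2 and 0 were lower. Over all genes the same rule gave 216 of 12733 higher (1.70%) and 36 lower (0.283%). Among the 37 members averaging 20 counts or more, 32 were higher and 5 lower in pup 2, and the median log2 ratio was 1.04, a 2.05-fold difference. Over all 15605 genes with such a count, 7388 were higher and 8217 lower, with a median of -0.015. The 18 members were the leukocyte genes Ptprc, Laptm5, Tyrobp, Fcer1g and Spi1, the receptor Csf1r, C1qa and C1qc, Folr2, Timd4, Lyz2, the Fc receptors Fcgr1, Fcgr3 and Fcgr2b, the scavenger receptors Msr1 and Marco, Trem2 and Ctss. All 18 belong to the 31 leukocyte-restricted members, whose median log2 ratio was 1.19. The 8 more widely expressed members had a median of 0.21, and none of them was 2-fold apart. With 8 genes, a count of 0 is near the shares over all genes. This grouping was chosen with earlier results of these data known, so the separation is a description only. The counting interval excluded 0 on the higher side in 30 and on the lower side in 2 of the 36 members, and in 2836 and 3825 of the 12733 genes, so such exclusion is common at this depth.

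**Figure D2:**
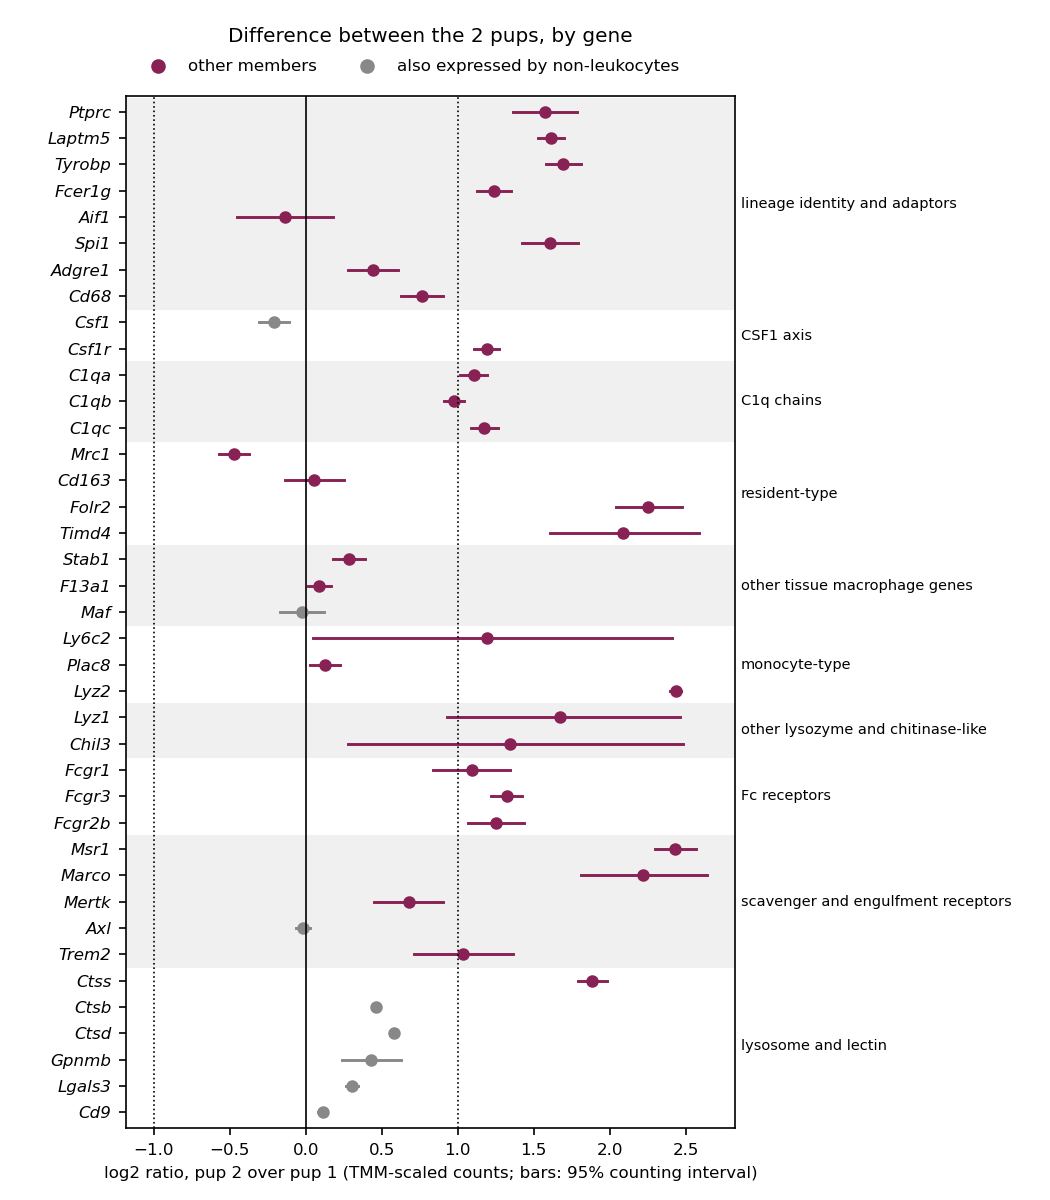
Log2 ratio of pup 2 over pup 1 for each gene (points) with its 95% counting interval (bars), from TMM-scaled counts, with dotted lines at 2-fold. Grey genes are also expressed by cells other than leukocytes and lie between -0.21 and 0.58, while the leukocyte-restricted genes reach from -0.47 for Mrc1 to 2.43 for Lyz2.

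Markers of other blood cells differed between the same libraries, and their part in the member ratios was not tested. The 12 neutrophil markers summed to 40.7 TPM in pup 1 and 410 TPM in pup 2. The 4 of them averaging 100 counts or more were all at least 2-fold higher in pup 2. Of the 8 averaging 20 counts or more, 7 were higher and 1 lower, the latter with a log2 ratio of -0.55. The calcium-binding alarmin S100a8 was at 24.6 and 263 TPM and its partner S100a9 at 8.90 and 106 TPM. The granule gene Lcn2 was at 1.84 and 7.99 TPM, and Retnlg at 0.98 and 20.4 TPM, while Ly6g, a defining neutrophil marker, had 0 counts in both pups, which allows up to 3 counts. The 8 erythroid markers summed to 21722 and 59107 TPM, and 6 of the 6 with sufficient counts were at least 2-fold higher in pup 2. The 9 mast cell markers summed to 107 and 241 TPM, with 3 of 6 at least 2-fold higher. Lymphocyte and natural killer markers stayed low, at 0.95 and 1.28 TPM for 9 genes, with Cd3g, Cd8a and Ncr1 at 0 counts. The 8 dendritic cell markers summed to 5.64 and 4.68 TPM with Cd209a at 0 counts, and the 4 eosinophil markers to 0.80 and 0.58 TPM with Il5ra at 0 counts. The 5 megakaryocyte and platelet markers summed to 18.1 and 32.8 TPM, and Itga2b was the 1 of 3 that was at least 2-fold higher. Hepatocyte markers went the other way, from 72.5 TPM in pup 1 to 19.3 TPM in pup 2, and 5 of 6 were at least 2-fold lower. Tissue markers differed little, with median log2 ratios of -0.12 for smooth muscle, 0.04 for urothelium, -0.13 for fibroblasts and -0.01 for endothelium.

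**Figure D3:**
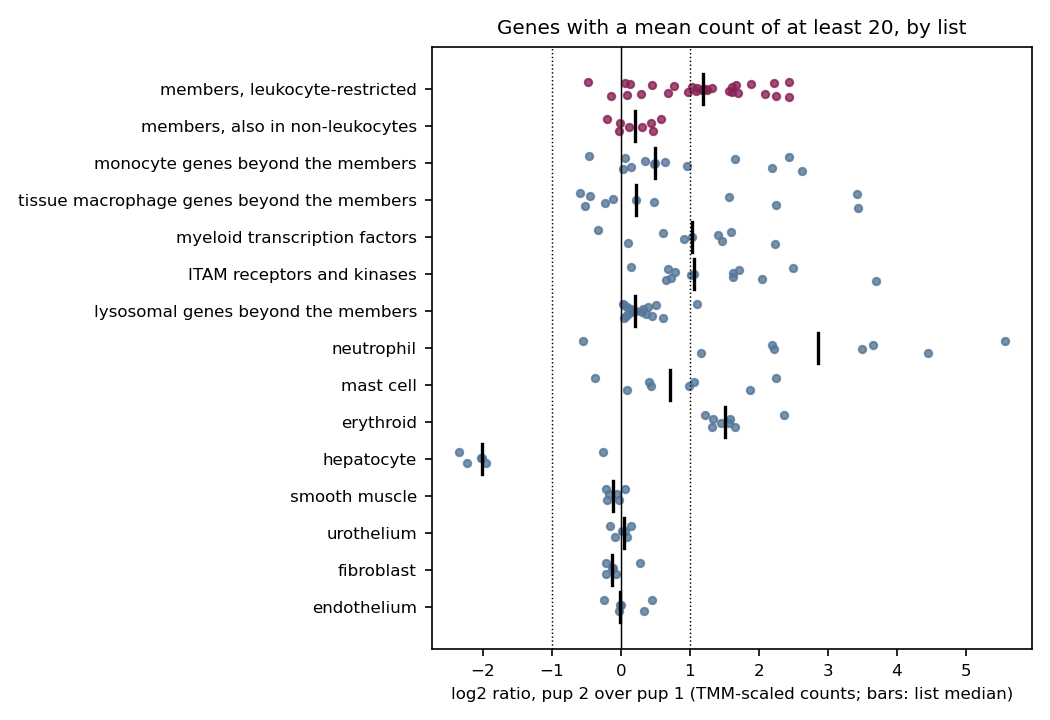
Log2 ratio of pup 2 over pup 1 for every gene averaging 20 counts or more (points), by list, with list medians as black bars and dotted lines at 2-fold. The leukocyte-restricted genes centre on 1.19, the neutrophil markers on 2.86 and the erythroid markers on 1.51, while the 4 bladder tissue lists centre near 0.

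Of the 8 genes of leukocyte and macrophage identity, 5 were at least 2-fold higher in pup 2 and 3 were not. Ptprc, which encodes the pan-leukocyte phosphatase CD45, was at 2.48 TPM in pup 1 and 6.95 TPM in pup 2, 2.97-fold higher in the scaled counts. The lysosomal membrane gene Laptm5 was at 33.6 and 96.9 TPM. Tyrobp, whose product DAP12 is a signalling adaptor with an ITAM motif, was at 65.2 and 200 TPM, 3.24-fold higher. Fcer1g, the common gamma chain of Fc receptors, was at 58.6 and 131 TPM. Spi1, the lineage transcription factor, was at 7.53 and 20.9 TPM, 3.04-fold higher. These 5 genes are shared by macrophages, monocytes and neutrophils, and each was well apart in the pups.

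Adgre1, Cd68 and Aif1 lay under 2-fold. So did other macrophage genes of the set, such as C1qb, Mrc1, Cd163, Stab1, F13a1 and Mertk. Others were at least 2-fold higher in pup 2, namely C1qa, C1qc, Csf1r, Folr2, Timd4, Fcgr1, Msr1, Marco and Trem2. Those genes are given further on. Adgre1, the gene of the classical mouse macrophage antigen F4/80, was at 6.51 TPM in pup 1 and 8.38 TPM in pup 2, a mean of 7.45 ± 1.32 TPM (SD, n = 2). Its log2 ratio was 0.44, with a counting interval from 0.28 to 0.61. Cd68, a late endosomal glycoprotein of phagocytes, was at 25.0 and 42.6 TPM, a mean of 33.8 ± 12.5 TPM (SD, n = 2) and a 1.70-fold difference. Aif1, which encodes the actin-binding protein IBA1, was the only lineage gene lower in pup 2, at 11.2 and 9.86 TPM. Its log2 ratio of -0.14 had a counting interval from -0.45 to 0.18, so the difference was within counting error.

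The growth factor axis was split between ligand and receptor. Csf1, the ligand, made by fibroblasts, smooth muscle and other stromal cells, was at 23.0 TPM in pup 1 and 18.8 TPM in pup 2, a mean of 20.9 ± 2.998 TPM (SD, n = 2). Csf1r, the receptor on the macrophage itself, was at 14.9 and 31.9 TPM, with a log2 ratio of 1.19 and a counting interval from 1.11 to 1.27. The ratio of receptor to ligand TPM was 0.647 in pup 1 and 1.70 in pup 2, so the ligand was the higher of the 2 in pup 1 and the receptor in pup 2. Il34, the other ligand of CSF1R, was low in both, at 2.06 and 1.54 TPM. Of the Csf1r windows, 13.5% are shared with Hmgxb3, a gene that overlaps it on the opposite strand and which had 769 and 606 counts against 1892 and 3265 for Csf1r.

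Receptors for the other colony stimulating factors were higher in pup 2. All 4 genes of this list with sufficient counts were at least 2-fold higher. Csf3r, the receptor for granulocyte colony stimulating factor, which neutrophils carry, was at 0.39 and 3.34 TPM, an 8.38-fold difference in scaled counts. Csf2ra, the ligand-binding chain for GM-CSF, was at 9.72 and 24.2 TPM, and the shared beta chain Csf2rb at 1.77 and 4.01 TPM. Csf2rb2, the near-identical mouse copy that serves IL-3, was at 0.58 and 1.21 TPM. The ligands were scarce, with Csf2 at 0 counts in pup 1 and 1 in pup 2, and Csf3 at 25 and 26 counts.

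Complement C1q was among the most abundant macrophage products. C1qa, C1qc and C1qb encode the 3 chains of the C1q molecule, which binds immune complexes and dying cells and is made mainly by tissue macrophages. They lie side by side on the minus strand of chromosome 4, C1qb from 136880129 to 136886187, C1qc from 136889804 to 136893065 and C1qa from 136895917 to 136898803. C1qb was at 107 TPM in pup 1 and 198 TPM in pup 2, C1qa at 58.0 and 118 TPM, and C1qc at 53.0 and 113 TPM. Their log2 ratios, 0.97, 1.10 and 1.18, were close to each other, and C1qb was just inside 2-fold, at 1.96. The chains kept almost the same proportions in both pups. The TPM of C1qb over C1qa was 1.84 and 1.68, and that of C1qc over C1qa was 0.914 and 0.960.

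The 4 resident-type genes fell into a pair that was higher in pup 2 and a pair that was not. Folr2, the folate receptor beta of tissue macrophages, was at 7.70 TPM in pup 1 and 34.8 TPM in pup 2. Its log2 ratio was 2.25, with a counting interval from 2.04 to 2.47, a 4.77-fold difference. Timd4, the phosphatidylserine receptor TIM-4 of long-lived, self-renewing macrophages, was at 0.77 and 3.10 TPM, from 48 and 154 counts, a 4.25-fold difference. Its interval, from 1.61 to 2.58, overlapped that of Folr2.

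Mrc1 and Cd163 did not show that difference. Mrc1 (chromosome 2, 14229392 to 14332057), the mannose receptor CD206, was at 16.9 TPM in pup 1 and 13.1 TPM in pup 2, a mean of 15.0 ± 2.67 TPM (SD, n = 2). Its log2 ratio of -0.47, with an interval from -0.57 to -0.37, was the lowest among those 37 members. Cd163, the haemoglobin-haptoglobin scavenger receptor, was nearly equal at 3.78 and 3.72 TPM, a mean of 3.75 ± 0.042 TPM (SD, n = 2). Its interval, from -0.14 to 0.25, included 0. The pairs were sorted by these same ratios, so a gap between their counting intervals is built in. The intervals of Mrc1 and Cd163 did not overlap each other. Within 1 pup, the TPM of Folr2 over Mrc1 was 0.456 in pup 1 and 2.65 in pup 2, and that of Timd4 over Cd163 was 0.204 and 0.833.

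Folr2 overlaps an antisense gene, Gm10602, and without a stated strand setting reads of the 2 cannot be told apart. Of the 1622 windows of Folr2, 684 (42.2%) also occur in Gm10602. That gene had 32.6 and 23.3 counts, against 226 and 815 counts for Folr2. Its log2 ratio was -0.12, with a counting interval from -0.95 to 0.695. The part of this overlap in the Folr2 ratio was not tested. Timd4, Mrc1 and Cd163 share no window with another gene.

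Tissue macrophage genes near these in function also ranged from slightly lower to several-fold higher in pup 2. Among members, the scavenger receptor Stab1 was at 25.9 and 38.7 TPM with a log2 ratio of 0.28, and the coagulation factor XIII subunit F13a1 was level at 28.4 and 28.6 TPM, with a log2 ratio of 0.09. Maf, the transcription factor c-MAF of resident macrophages, was at 5.69 and 5.32 TPM, with a ratio of -0.02. Beyond the members, 2 of 7 tissue macrophage genes with sufficient counts were at least 2-fold higher and 0 lower. The lipoprotein gene Apoe was at 416 and 1867 TPM, and the chemokine Ccl24 at 3.28 and 9.21 TPM. Vsig4, the complement receptor of liver and peritoneal macrophages, was at 0.48 and 4.89 TPM on 19 and 156 counts, too few for the count rule. Cd5l, a secreted macrophage protein, was at 0.17 and 1.75 TPM on 10 and 81 counts.
Against these, Lyve1, the hyaluronan receptor of perivascular macrophages and lymphatic vessels, was at 22.3 and 15.5 TPM, with a ratio of -0.45, and the macrophage gene Ms4a7 at 12.5 and 8.24 TPM, with a ratio of -0.60. The chemokine Pf4 was at 299 and 396 TPM, and the TAM receptor ligand Gas6 was at 89.0 and 77.5 TPM. Mrc1, Lyve1 and Ms4a7 were thus slightly lower in pup 2, while Folr2, Timd4, Apoe, Vsig4 and Cd5l were each more than 4-fold higher. Others lay between, such as Stab1, F13a1, Pf4 with a ratio of 0.48 and Gas6 with -0.12. Of the 11 genes beyond the members averaging 20 counts or more, 6 were higher and 5 lower, with a median log2 ratio of 0.22.

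The monocyte-type genes were dominated by 1 of their 3 members. Lyz2 was at 216 TPM in pup 1 and 1106 TPM in pup 2, from 7562 and 30865 counts. Its log2 ratio of 2.43, with an interval from 2.40 to 2.47, a 5.40-fold difference, was the largest of the set, next to Msr1. Plac8, a small cysteine-rich protein of monocytes and other cells, was level at 95.1 and 98.6 TPM, a mean of 96.8 ± 2.44 TPM (SD, n = 2). Ly6c2, the marker of classical monocytes, was barely detected, at 0.48 and 1.03 TPM on 10.7 and 18.7 counts. Its interval ran from 0.05 to 2.41, so that neither a level nor a difference was well measured. The near-identical Ly6c1 was at 63.7 and 75.2 TPM, so that reads wrongly placed between the 2 genes would weigh far more on Ly6c2 than on Ly6c1.

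**Figure D4:**
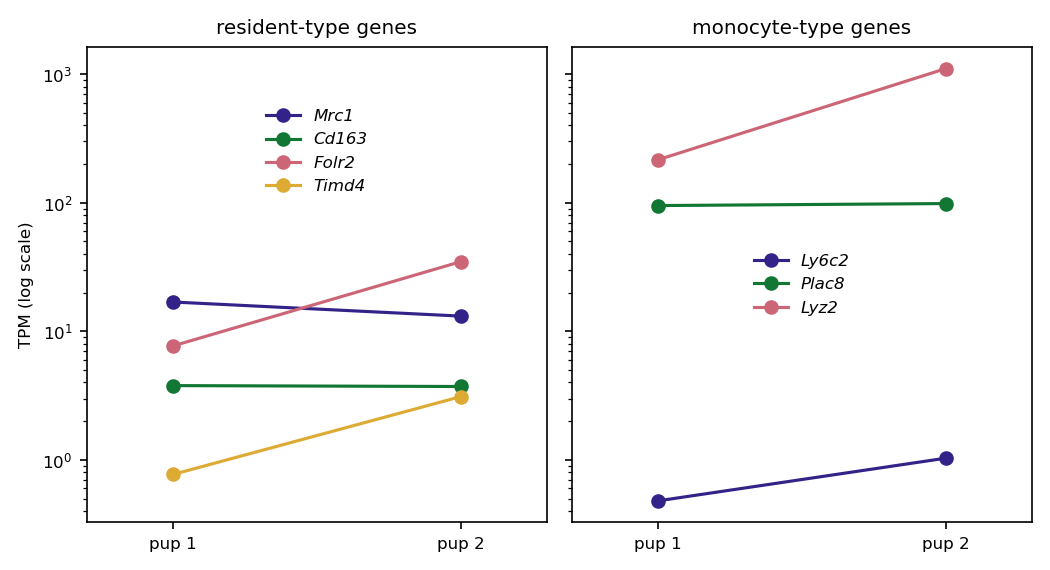
Level in each pup of the 4 resident-type genes (left) and the 3 monocyte-type genes (right), in TPM on a log axis, with a line joining the 2 pups. Folr2, Timd4 and Lyz2 slope up to pup 2, Ly6c2 also does but on fewer than 20 counts per pup, Cd163 and Plac8 are nearly level, and Mrc1 slopes down.

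Set against each other, the 2 types gave a ratio that rested on Lyz2. The monocyte-type genes summed to 312 TPM in pup 1 and 1205 TPM in pup 2, and the resident-type genes to 29.2 and 54.7 TPM. The monocyte-type sum was 10.7 times the resident-type sum in pup 1 and 22.0 times in pup 2, a log2 change of 1.04. Without Lyz2, the monocyte-type sum was 95.6 and 99.6 TPM, and the ratio went the other way, from 3.28 to 1.82, a log2 change of -0.85. That sum was nearly all Plac8, at 95.1 and 98.6 TPM. By gene, the median log2 ratio was 1.07 over the 4 resident-type genes and 1.28 over Plac8 and Lyz2, the 2 monocyte-type genes averaging 20 counts or more. Since Lyz2 is also a neutrophil and macrophage gene and Plac8 is also expressed by other cells, the direction of the balance cannot be read from these 7 genes alone.

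Other monocyte genes also split. Of 10 with sufficient counts, 3 were at least 2-fold higher in pup 2 and 0 lower, and the median over 13 was 0.49. Itgam, the integrin CD11b of monocytes and neutrophils, was at 5.21 and 32.9 TPM, Cd14, the endotoxin coreceptor, at 13.02 and 66.7 TPM, and Itgal at 0.44 and 1.33 TPM. The calcium-binding gene S100a4 had the highest level of this list and a ratio of 0.96. Ccr2, the chemokine receptor that defines classical monocytes, differed little, at 0.88 and 1.19 TPM with an interval from 0.05 to 0.92. Cx3cr1, the fractalkine receptor of patrolling monocytes and many tissue macrophages, was at 4.19 and 6.26 TPM. The markers most specific to classical monocytes, Ccr2 and Ly6c2, were thus near 1 TPM or below in both pups.

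The remaining lysozyme and chitinase-like members were scarce. Lyz1 was at 0.64 and 1.90 TPM, from 22.4 and 52.9 counts, and Lyz2 exceeded it 338-fold in pup 1 and 582-fold in pup 2. Their coding sequences differ at the 22 bases counted above, and the estimator's posterior SD for Lyz1 was 2.77% and 1.80% of its count. Reads wrongly placed between the 2 genes would still weigh far more on Lyz1 than on Lyz2. Chil3, the chitinase-like protein Ym1 of activated macrophages, neutrophils and their precursors, was at 0.28 and 0.67 TPM on 12 and 23 counts. Of its windows, 4.93% occur in other genes, among them Chil4, which had 0 counts in both pups.

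All 3 Fc receptor members were higher in pup 2. Fcgr3, a low-affinity activating receptor for IgG, was the highest at 33.2 and 78.6 TPM, followed by the inhibitory receptor Fcgr2b at 8.98 and 19.7 TPM. Fcgr1, the high-affinity receptor typical of macrophages, was at 2.83 and 5.71 TPM. Their differences were 2.50-fold, 2.38-fold and 2.13-fold. The activating Fcgr3 exceeded the inhibitory Fcgr2b to about the same degree in both pups, with TPM ratios of 3.69 and 3.98. Both genes lie near Fcer1g on chromosome 1, with Fcgr2b from 170958617 to 170976547, Fcgr3 from 171051174 to 171064935 and Fcer1g from 171229572 to 171234365, all on the minus strand. Fcgr3 shares 2.54% of its windows with Fcgr2b. Of the other Fc receptors, Fcgr4 was at 3.26 and 7.05 TPM and was the 1 of 3 at least 2-fold higher. Fcgrt, the neonatal Fc receptor that endothelium and epithelium also express, was at 102 and 118 TPM, and Fcrls at 5.42 and 5.21 TPM.

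A list of receptors, kinases and other proteins of ITAM signalling, including the inhibitory phosphatases Ptpn6 and Inpp5d and the inhibitory receptor Sirpa, had a median log2 ratio of 1.06 over 13 genes averaging 20 counts or more. Their log2 ratios ran from 0.15 for Sirpa to 3.69 for Trem1. Of 11 with sufficient counts, 6 were at least 2-fold higher. Trem1, a receptor of neutrophils and monocytes that pairs with DAP12, was at 0.44 and 5.36 TPM, the largest difference of this list. Clec5a, another DAP12 partner of myeloid cells, was at 1.23 and 5.41 TPM, Cd84 at 2.77 and 9.87 TPM, and the exchange factor Vav1 at 1.52 and 4.60 TPM.

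The scavenger receptors Msr1 and Marco lay further apart in the pups than the engulfment receptors Mertk and Axl. This did not extend to other receptors of these kinds. The scavenger receptors Stab1 and Cd163 had log2 ratios of 0.28 and 0.06, and the phosphatidylserine receptor Timd4 had 2.09. Msr1, the scavenger receptor A1 that takes up modified lipoproteins, was at 7.68 TPM in pup 1 and 37.2 TPM in pup 2, a 5.39-fold difference with a log2 interval from 2.30 to 2.57. Marco, a related collagen-like scavenger receptor, was at 1.17 and 5.15 TPM, 4.65-fold apart on 64 and 225 counts. The counting intervals of the 2 genes overlapped. Mertk, a TAM receptor through which macrophages engulf dying cells, was at 2.30 and 3.47 TPM, with a log2 ratio of 0.68. Its relative Axl, expressed widely in stroma, was at 101 and 95.3 TPM, a mean of 98.4 ± 4.38 TPM (SD, n = 2), with an interval that included 0. Trem2, a lipid-sensing receptor that pairs with DAP12, was at 3.85 and 7.73 TPM, and its 2.05-fold difference lay just outside 2-fold.

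Of 9 phagocytic genes beyond the members with sufficient counts, 2 were at least 2-fold higher and 0 lower, with a median log2 ratio of 0.11. Clec7a, the beta-glucan receptor dectin-1, was at 2.44 and 27.9 TPM, and Itgb2, the beta chain shared by CD11a and CD11b, at 4.94 and 32.3 TPM. The bridging protein Mfge8 was level, at 208 and 206 TPM, as was the stromal collectin Colec12, at 65.8 and 60.8 TPM.

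Most lysosomal members were abundant and, apart from cathepsin S, lay under 2-fold. Ctss, the cathepsin of antigen-presenting cells, was at 33.4 and 117 TPM, a 3.70-fold difference. Ctsd and Ctsb, the cathepsins of nearly all cells, were at 516 and 734 TPM and at 159 and 207 TPM, with log2 ratios of 0.58 and 0.46. Ctsb shares 11.4% of its windows with Fdft1, which overlaps it on the opposite strand and was at 103 and 58.3 TPM. Ctsd shares 30.2% with Gm49369, an overlapping gene on the same strand in GENCODE M21. Lgals3, the lectin galectin-3, was at 392 and 461 TPM, the tetraspanin Cd9 at 561 and 573 TPM, and the phagosomal glycoprotein Gpnmb at 4.06 and 5.18 TPM. Ranked by mean TPM, Lyz2 came first at 661 ± 629 TPM (SD, n = 2), followed by Ctsd at 625 ± 154 TPM and Cd9 at 567 ± 8.92 TPM, and the order of these 3 is within the spread of the pups. Lgals3, at 427 ± 48.7 TPM (SD, n = 2), came next.
Of 18 further lysosomal genes, all were higher in pup 2 but only by a median log2 ratio of 0.20, and 1, the dipeptidyl peptidase Ctsc of leukocyte granules, was at least 2-fold higher, at 41.0 and 83.7 TPM. The lysosomal genes led by level were Cd63, Cst3 and Lamp1, with log2 ratios of 0.10, 0.46 and 0.07.

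Transcription factors of myeloid cells were higher in 8 of 9 genes averaging 20 counts or more. Of 7 with sufficient counts, 4 were at least 2-fold higher. Among them, Cebpa, the granulocyte and monocyte progenitor factor, was at 1.32 and 3.45 TPM, Irf5 at 4.89 and 12.6 TPM, and Irf8, needed for monocyte formation, at 9.56 and 22.7 TPM. Cebpb was at 22.5 and 40.3 TPM and Klf4, which epithelium also expresses, at 37.95 and 28.6 TPM.

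Genes of macrophage activation held the largest difference among the pathway lists, by the 2-fold and 100-count rule. Arg1, the arginase that macrophages and other cells can switch on, was at 23.9 TPM in pup 1 and 365 TPM in pup 2, a 16.2-fold difference. Hmox1, the haem oxygenase that degrades haem from engulfed red cells, was at 65.7 and 232 TPM, and the costimulatory gene Cd86 at 1.37 and 3.27 TPM. These were the 3 of 9 genes with sufficient counts, and all 3 were at least 2-fold higher. The globin level of pup 2 was higher as well, with Hbb-bs at 6584 and 16224 TPM and the haem synthesis gene Alas2 at 40.4 and 125 TPM. The part of red cells in the Hmox1 difference was not tested.

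Transcript estimates added detail for members with several forms. By the deposited percent of each gene assigned to each transcript, 21 members had at least 2 transcripts at 1 TPM in a pup, 17 had 1 and 1 had none. For Mrc1, the coding transcript Mrc1-201 (coding length 4368 bases) was at 14.3 and 8.81 TPM, and the non-coding Mrc1-202, which retains an intron, at 2.59 and 4.32 TPM. The retained-intron form thus made up 15.3% of the gene in pup 1 and 32.9% in pup 2, and the coding form alone was 1.54-fold lower in pup 2. The posterior SD of the estimated counts was 23.4 and 19.6, against counts of 2259 and 1111 for the coding form and 152.85 and 203.78 for the retained-intron form.

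Csf1 and Msr1 each have forms with known differences in protein. Csf1-201 and another transcript of equal coding length encode the long CSF1 precursor (coding length 1656 bases), which is cleaved and secreted, and together they made up most of the gene. Csf1-202 has the shorter coding length of 771 bases, because an internal exon holds 131 in place of 1016 bases, and it encodes the form that stays at the cell surface. It took 30.6% in pup 1 and 35.8% in pup 2, with 624 and 476 counts and posterior SDs of 79.6 and 50.4, so that the difference in share was not well resolved.
Msr1-201 (coding length 1374 bases) encodes the type I receptor with its cysteine-rich end domain and Msr1-202 (1062 bases) the type II receptor without it. The 2 forms were nearly equal, at 3.83 and 3.85 TPM in pup 1 and at 16.4 and 20.8 TPM in pup 2, so both were higher in pup 2. Csf1r-201 and Csf1r-202 have the same coding length, 2931 bases, and took 42.6% and 57.4% in pup 1 and 38.9% and 61.1% in pup 2.

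**Figure D5:**
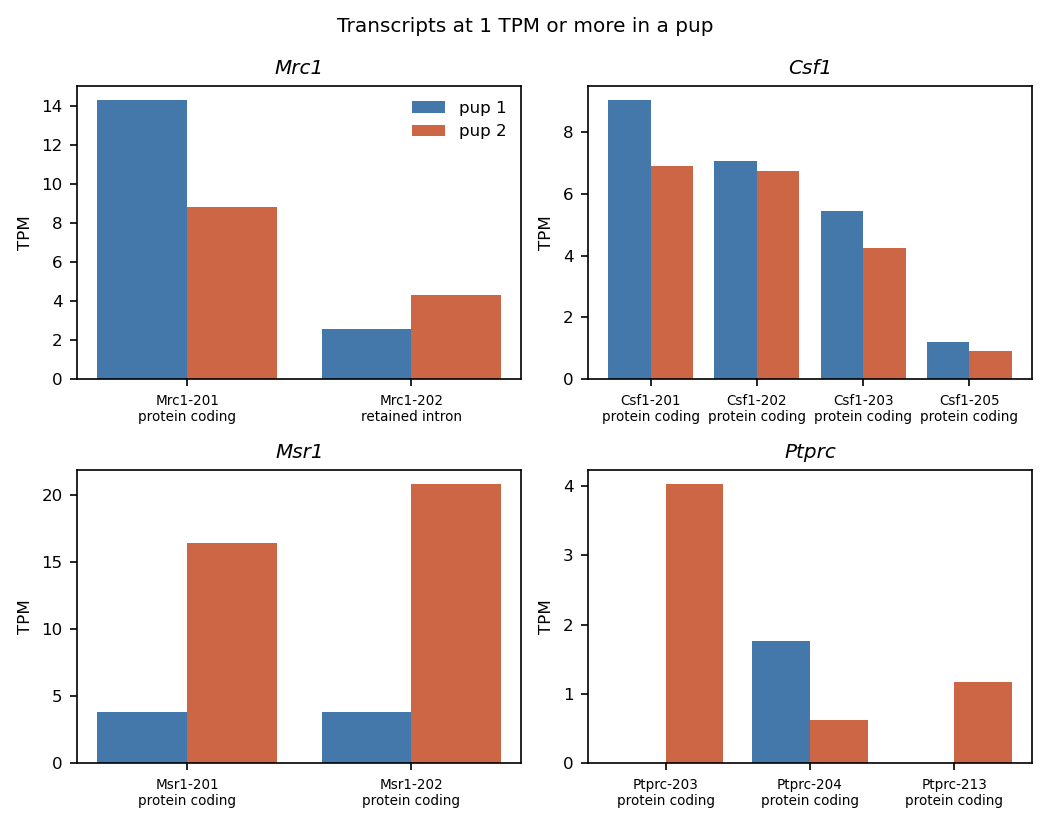
Level in each pup of the transcripts of Mrc1, Csf1, Msr1 and Ptprc that reached 1 TPM in a pup, as deposited estimates in TPM, with bars from 0. Mrc1-201 is lower and the retained-intron Mrc1-202 higher in pup 2, both Msr1 forms are higher in pup 2, and the leading Ptprc form differs between the pups.

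Estimates for single Ptprc transcripts were uncertain. In pup 1 Ptprc-204 was assigned 71.0% of the gene and a longer form was listed at 0, while in pup 2 the shares were 8.93% and 58.0%. The longer form differs in coding sequence by 1 additional exon of 72 bases, on chromosome 1 from 138116954 to 138117025. The posterior SDs of its count were 29.5 and 54.2, against estimated counts of 0 and 444. For Trem2, the longer coding form Trem2-202 (747 bases) took 6.47% and 23.0%, on 7.12 and 40.7 counts. The posterior SDs of these counts were 6.96 and 13.06, so that the difference in share was not well resolved. Stab1 was spread over 8 transcripts at 1 TPM or more, and the full-length coding form Stab1-201 was level at 2.64 and 2.71 TPM. The short non-coding Stab1-202 of 242 nt was at 2.84 and 10.4 TPM on only 12.1 and 35.7 counts, and it took 10.9% and 27.0% of the gene.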

How the data were processed

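Gene and transcript levels were measured by total RNA-seq in 2 newborn mouse bladders, with 1 library per pup. The authors deposited RSEM-type expected counts (estimated reads, multi-mapped reads divided among targets, not normalised), TPM over all entries of a file, posterior SD scores of each count, and the percent of each gene assigned to each transcript, on mm10 with GENCODE M4 per the labels' text listing. No source used here gives the aligner, the RSEM version or the strand setting, so overlapping genes cannot be told apart by strand. Effective lengths were 99 nt below transcript length, which raises the TPM of short transcripts.

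Identifiers were matched to GENCODE M21 symbols (42462 of 43346, 98.0%). Levels are TPM per pup, mean and SD (n = 2), where SD reflects 2 littermates. Ratios used expected counts rounded to whole numbers, TMM factors (edgeR 4.0.16, R 4.3.3; Python 3.11.15) and counts under 3 set to 3, with 95% Clopper-Pearson intervals. For a gene of 1 kb, 3 counts (the upper limit at a count of 0) equal 0.111 TPM (pup 1) or 0.139 TPM (pup 2). This limit and the intervals cover counting error only, since PCR copies were not told apart. The steps were tested on simulated counts. Alternatives were DESeq2 1.42.0 size factors, total counts, TMM without globin genes, TPM, posterior mean counts and other minimums.

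The members and lists were chosen with earlier results of these data known. All members were named. From other lists, up to 3 genes by mean TPM and up to 4 by log2 ratio among those 2-fold apart were named, except 1 that is not reported here. Cd5l, Vsig4, Lyve1, Ms4a7, Il34, Csf2, Csf3, Ccr2, Cx3cr1, Ptpn6, Inpp5d, Sirpa, Mfge8, Colec12, Cebpb, Klf4, Hbb-bs, Ly6g and genes listed at 0 counts were also given, some of them chosen after their values were seen. No gene from the numeric-identifier or spike-in entries was used.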

Additional observations from a re-analysis of the deposited data

How the results depend on the processing

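The 18 members at least 2-fold higher in pup 2 were the same genes under total-count scaling, DESeq2 size factors, TMM without globin genes, the ratio of TPM and posterior mean counts, with none lost and none gained, and 0 were lower under any of these. With a mean count minimum of 20 there were 19 and with 300 there were 14. The median log2 ratio of all genes was -0.02 with TMM, -0.005 with total counts and -0.10 with the ratio of TPM. On the log2(TPM + 1) scale the median over all members was 0.82 and that of the resident-type members 0.60, since a pseudocount of 1 compresses low genes such as Timd4. The monocyte-type median was 1.20 with the ratio of TPM and 1.20 with TPM + 1. The change of the monocyte-type over resident-type ratio was -0.85 without Lyz2, against 1.04 with it, and 2.04 by summed expected counts. Without Lyz2, Plac8 made up nearly all of the monocyte-type sum. The number of members at 1 TPM or more was between 35 and 38 in single pups, and in both pups it was 37 at a minimum of 0.5 TPM and 28 at 5 TPM. Leaving out a replicate could not be run for differences between the pups, because each pup is 1 library. No paired analysis was possible because both pups belong to 1 group. Depth limits Ly6c2, Chil3 and Lyz1 most, each with fewer than 60 counts per pup.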
